A study of Mus musculus with 4 samples.

Results

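Classical monocytes are short-lived blood leukocytes that carry Ly-6C and the chemokine receptor CCR2 on their surface, enter inflamed tissue and can turn there into macrophages or antigen-presenting cells. In the allergic lung they arrive from the blood after allergen, together with neutrophils and eosinophils. The urokinase receptor, encoded by Plaur, holds the protease urokinase at the surface of such cells and binds integrins, among them CD11b. The cells described here were chosen by the values of their own genes. A barcode needed 200 or more genes, mitochondrial UMIs (unique molecular identifiers, each marking a captured RNA molecule) of 10% or less, at least 3 of the 6 genes Ly6c2, Ccr2, F13a1, Vcan, Ms4a4c and Ms4a6c, and at least 10 UMIs of Lyz2. It was left out if S100a8 and S100a9 made up 2% or more of its UMIs, if C1qa, C1qb and C1qc had 10 or more UMIs, if Cd79a, Cd3e, Siglech or Flt3 was found, or if at least 2 of 6 alveolar macrophage genes or 3 of 5 nonclassical monocyte genes were found. This left 134 of 8944 barcodes of the WT-labelled library and 287 of 10041 of the KO-labelled library, 421 of 18985 in all. They are called members below.

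The study set 8 C57B6/J WT mice beside 8 Plaur–/– mice. Both groups received LPS with OVA (ovalbumin, the allergen) at day 0 and day 7 and inhaled OVA at day 14, so no untreated lung enters the comparison. CD45.2+ leukocytes sorted from digested lung, which the labels call circulating in one place and a total lung lysate in another, gave 1 RNA library and 1 library of antibody tags per genotype; whether the mice of a group were pooled, and their age and sex, are not given in the sources used here. The sources used here do not say where the Plaur deletion lies, so a 3′ tag of its RNA checks nothing, and the libraries are named by their labels. With 1 library a genotype there was no test: each difference is between 2 libraries, and every interval is at 95% and covers counting error only. The libraries held 42913843 and 47442215 gene UMIs, the median member had 6486 and 6308 UMIs, and the members together had 939029 and 2184374. The libraries shared 16 barcodes, none of them among members. Scrublet, a caller of cell doublets, marked 260 and 457 barcodes, of which 0 and 8 were members.

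Each cell carried, beside its RNA, the tags of 5 antibodies, whose levels the rule did not use. The tags are shown because the surface levels below are counts of these oligonucleotides, and each tag is given whole, 5′ to 3′, as in the deposited antibody reference, with no part marked in capitals.
CD11b: tgaaggctcatttgt
Ly-6C: aagtcgtgaggcatg
CD14: aaccaacagtcacgt
CCR3: tagaaccgtatccgt
ST2: gcgatggagcatgtt

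The label was checked against markers within the members. Clustering gave 5 clusters, described here with no test because the genes that made the clusters also describe them. Ly6c2, Ccr2 and F13a1 are genes of the rule, so their levels describe the clusters and do not support the label. Ly6c2, which encodes a Ly-6C antigen, was at 1022 CPM (a gene's UMIs per 1000000 UMIs of the summed cells) in cluster 2 and 890 CPM in cluster 3. Ccr2 was at 1939 and 1526 CPM there, and F13a1, the coagulation factor XIII A subunit made by monocytes, at 1687 and 1353 CPM. Plac8, a gene of classical monocytes that the rule did not use, was at 4732 and 4336 CPM in clusters 2 and 3, 3480 CPM in cluster 1, 267 CPM in cluster 4 and 98.6 CPM in cluster 5. Of 10 leading genes of cluster 3, Cxcl10 and Hbegf encode an interferon-induced chemokine and a growth factor of the EGF family. Cluster 2 had leading genes with little excess over other members, led by Hpgd, which encodes a prostaglandin-degrading enzyme. The 18 neutrophil markers summed in clusters 2 and 3 to 464 CPM (WT-labelled) and 799 CPM (KO-labelled), with Ly6g, Camp, Ltf and Ngp at 0.

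Cluster 1 held monocyte genes and neutrophil genes in the same cells. Its leading genes were G0s2, S100a9, Retnlg, S100a8, Hdc, Il1r2, Cxcr2, Mmp9, Ifitm1 and Csf1, and 8 of these 10 are on the neutrophil list. Ly6c2 was still at 755 CPM, Ccr2 at 1353 CPM and F13a1 at 1420 CPM, against 219, 317 and 308 CPM in neutrophils. S100a8 was at 4160 CPM against 103 CPM in cluster 2 and 33969 CPM in neutrophils. The median cell had 7669 UMIs, more than in clusters 2 and 3 (5238 and 5224), and 5 cells were called doublets. Neutrophil markers summed to 15260 and 14584 CPM in the 2 libraries. The part of neutrophil RNA and of doublets in this cluster was not tested.

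Clusters 4 and 5 went against the label. Cluster 4 was led by Ccl17, Mgl2, Cd209a, Retnla, Mrc1 and the class II chains H2-Eb1 and H2-Ab1, genes of dendritic cells and alternatively activated macrophages, and had Ly6c2 at 66.8 CPM with Ccr2 at 790 CPM. Cluster 5 was led by Spp1, Gpnmb, Slc7a2, Cd63 and Ctsd, genes of lipid-laden and lysosome-rich macrophages, and had Ly6c2 at 158 CPM and Ccr2 at 63.1 CPM. The rule asks for detection of 3 or more genes and sets no level. These clusters keep their numbers below.

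The libraries differed in how members fell into the clusters. Cluster 1 held 35 WT-labelled members (26.1%, exact binomial interval 18.9% to 34.4%) and 134 KO-labelled ones (46.7%, 40.8% to 52.6%). Clusters 2 and 3 held 59 (44.0%, 35.5% to 52.9%) and 138 (48.1%, 42.2% to 54.0%). Clusters 4 and 5 held 40 (29.9%) and 15 (5.23%). A sum over all members therefore sets a WT-labelled mixture with many cells of clusters 4 and 5 beside a KO-labelled mixture with few, so values within clusters 2 and 3 and within cluster 1 are set beside those of all members.

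**Figure D1:**
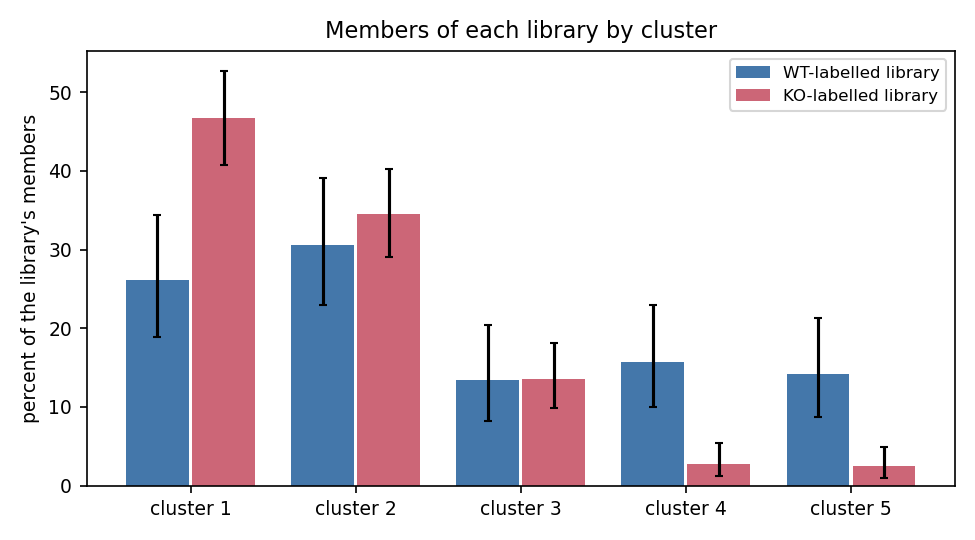
Percent of each library's members in each of 5 clusters, with exact binomial 95% intervals. Clusters 4 and 5 hold 29.9% of WT-labelled and 5.23% of KO-labelled members, and cluster 1 holds 26.1% and 46.7%.

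Members made up 1.498% of WT-labelled barcodes (1.26% to 1.77%) and 2.86% of KO-labelled barcodes (2.54% to 3.20%), a ratio of 1.91 (1.56 to 2.34). Within clusters 2 and 3 alone the shares were 0.660% and 1.37%, a ratio of 2.08 (1.54 to 2.82). Nonclassical monocytes, found by 3 or more of the genes Ace, Treml4, Adgre4, Cd300e and Eno3, had a ratio of 1.75 (1.39 to 2.19). Neutrophils had a ratio of 1.41 and C1q macrophages 0.915 (0.813 to 1.03). Shares depend on the other cells sorted, and B cells were 12.9% of the WT-labelled and 8.99% of the KO-labelled barcodes.

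Some limits of the rule had many barcodes on both sides. With all other limits met, 51 barcodes lay between 1.5% and 2% of S100 UMIs, just inside, 12 WT-labelled and 39 KO-labelled, and 23 and 72 lay between 2% and 3%, just outside. Of the members, 43 WT-labelled and 21 KO-labelled had exactly 3 of the 6 monocyte genes, and 88 and 60 further barcodes had exactly 2. For Lyz2, 9 and 12 members had 10 to 14 UMIs, and 19 and 16 barcodes with 5 to 9 UMIs fell outside. When 4 of the 6 genes were asked for, the ratio of shares was 2.60, and with 2 of the 6 it was 1.39 (1.18 to 1.64).

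Surface antibody counts were read against the B cells of the same library, taken as cells that carry little of these proteins, which gave a background of 8.48 and 12.3 CD11b UMIs and 10.0 and 19.4 Ly-6C UMIs per cell. Of the 5 antibodies, CD11b and Ly-6C stood clear of this background. In clusters 2 and 3 the median cell had 53 Ly-6C UMIs (quartiles 35 and 77) in the WT-labelled library and 73 (51.8 and 102) in the KO-labelled one. The mean was 6.72 times that of B cells in the first and 4.30 times in the second. Cluster 1 was likewise high, with medians of 72 and 98. Cluster 4 was near background, with medians of 11 and 23.5 against 9 and 17 in B cells, and cluster 5 had 16 and 27. The medians of clusters 1 to 3 thus lay above those of clusters 4 and 5 in both libraries. The rule did not read the antibody counts, but it did read Ly6c2, whose product this antibody binds, so the antibody is not independent of it.

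CD11b, the integrin subunit of Mac-1, was at a median of 55 UMIs (40.5 and 70.5) and 47 UMIs (38 and 66.8) in clusters 2 and 3. It was higher in cluster 1, with medians of 182 and 150, which exceeded those of neutrophils (130 and 105). Cluster 5 had the highest medians among members, 263 and 224. CD14 averaged 3.84 and 3.02 UMIs per member against 3.13 and 2.51 in B cells, 1.23 and 1.20 times that background. The WT-labelled cells of cluster 5 had the highest mean, 7.16 UMIs (2.29 times B cells), while the 7 KO-labelled cells of that cluster had 3.14. CCR3 averaged 1.27 and 0.878 and ST2 0.769 and 0.885 UMIs, with 1.10 and 1.10, and 0.818 and 0.834, in B cells.

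**Figure D2:**
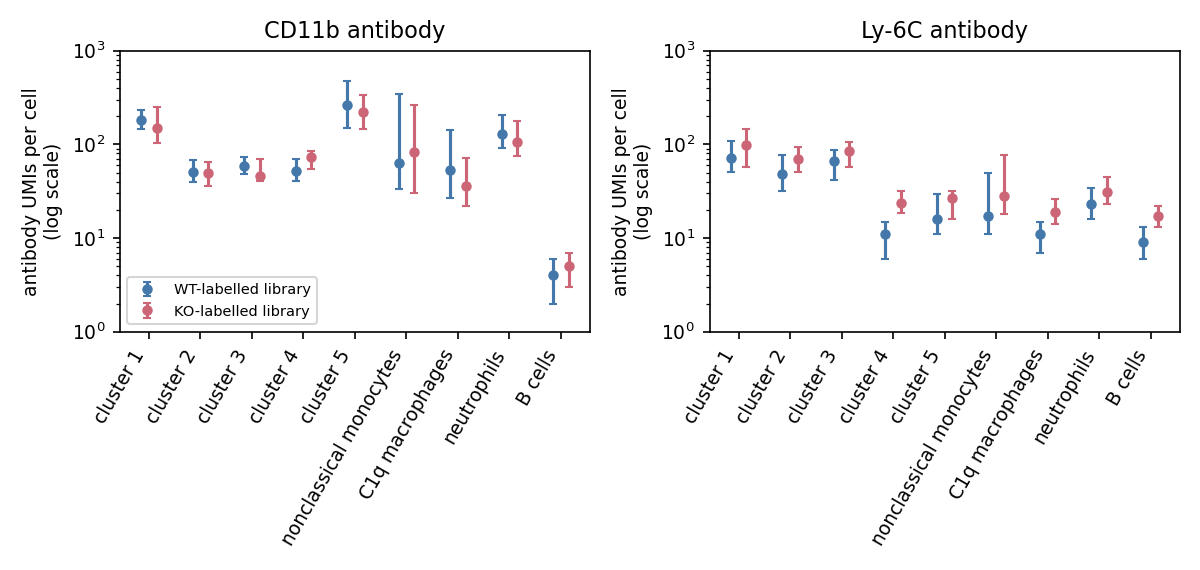
Antibody UMIs per cell for CD11b and Ly-6C on a log scale: points are medians and bars quartiles over cells, for each member cluster and 4 other populations, in both libraries. Ly-6C is high in clusters 1 to 3 and near the B-cell level in cluster 4; CD11b is higher in clusters 1 and 5 than in clusters 2 and 3.

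Relative to B cells, the Ly-6C signal of members differed by -0.17 on the log2 scale between the KO-labelled and WT-labelled libraries and that of CD11b by -0.77. In clusters 2 and 3 alone the differences were -0.64 (-0.71 to -0.58) and -0.71 (-0.78 to -0.64). The sign for Ly-6C turns with the scaling: without the B-cell reference, members' mean Ly-6C was 56.3 and 97.1 UMIs, higher in the KO-labelled library by 0.79. B cells themselves differed between libraries in the same direction, and this shift and a difference of the members cannot be told apart. For CD11b the difference of means without the B-cell reference was -0.24, while the raw medians were 74 UMIs (WT-labelled) and 78 UMIs (KO-labelled). The CD11b difference relative to B cells was similar in size in neutrophils (-0.71) and nonclassical monocytes (-0.74) and larger in C1q macrophages (-1.28). These values share the B-cell reference, whose mean was 8.48 and 12.3 UMIs, so part of their likeness is built in. Raw means were 185 and 164 UMIs in neutrophils, 279 and 242 in nonclassical monocytes and 119 and 71.2 in C1q macrophages. Itgam, the CD11b gene, was at 334 and 396 CPM in members, a log2 ratio of 0.25 (0.06 to 0.44). Across the 134 and 287 members, the rank correlation of the Ly-6C tag with the Ly6c2 share of a cell's UMIs was 0.51 and 0.32, and that of the CD11b tag with Itgam 0.22 and 0.22. These are descriptions over cells of 1 library that share depth.

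Plaur, the targeted gene, was found in both libraries. It was at 574 CPM in WT-labelled members (539 UMIs) and 355 CPM in KO-labelled members (776 UMIs), a log2 ratio of -0.69 (-0.85 to -0.53). Within clusters 2 and 3 the levels were 416 and 252 CPM, a log2 ratio of -0.73 (-1.06 to -0.39), and in cluster 1 they were 848 and 437 CPM. B cells were at 215 and 319 CPM, in the opposite order. In CPM the KO-labelled level in clusters 2 and 3 lay below that of B cells of the same library. B cells had fewer UMIs per cell, so this order in CPM is not an order of Plaur UMIs per cell.

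Over all members, 307 of 4415 genes with at least 100 UMIs over both libraries (6.95%) had KO-labelled levels at least 1.5-fold above the WT-labelled ones, and 287 (6.5%) lower. Within clusters 2 and 3, 153 of 1875 genes (8.16%) were higher and 109 (5.81%) lower. In cluster 1, 223 of 2569 (8.68%) were higher and 170 (6.62%) lower. The median gene differed by 0.07, 0.04 and 0.04 on the log2 scale in these 3 sets.

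Apoe, which encodes the lipid carrier apolipoprotein E, showed the largest difference. It had 2334 UMIs in 98 of 134 WT-labelled members and 52 UMIs in 19 of 287 KO-labelled members. That is 2486 CPM against 23.8 CPM, a log2 ratio of -6.71 (-7.13 to -6.31). The ratio was -6.06 (-6.74 to -5.44) in clusters 2 and 3 and -6.08 (-6.66 to -5.54) in cluster 1. Within clusters 2 and 3, 46 of 59 WT-labelled cells had an Apoe UMI and 11 of 138 KO-labelled cells did. B cells held 235 CPM (WT-labelled) and 35.1 CPM (KO-labelled), so in CPM WT-labelled members were above their B cells and KO-labelled members below. The median B cell had 2458 and 2262 UMIs, against 6486 and 6308 in members. The order in CPM therefore does not place members against free RNA per cell. Apoe was lower in each of the other populations too, by -4.59 in nonclassical monocytes, -4.53 in neutrophils and -1.89 in C1q macrophages, where it was at 12128 and 3270 CPM. Its neighbour Apoc2, another apolipoprotein, was at 105 and 25.2 CPM in members, a log2 ratio of -2.07, and of -2.85 (-3.70 to -2.06) in clusters 2 and 3.

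Hprt and Irgc1 were the genes with the highest ratios by the bound of their interval nearest 0. Hprt, an enzyme of purine salvage, was at 92.6 and 448 CPM in members, a log2 ratio of 2.27 (1.96 to 2.61), and its ratio was 2.09 in clusters 2 and 3 and 3.10 in cluster 1. It had a UMI in 27 of 59 WT-labelled and 125 of 138 KO-labelled cells of clusters 2 and 3. Irgc1, a GTPase gene, was at 7.45 and 55.4 CPM, a log2 ratio of 2.89 (1.81 to 4.24), and of 3.10 in clusters 2 and 3 and 2.38 in cluster 1. B cells, with fewer UMIs per cell, held 22.1 and 47.1 CPM, so the level is low and the part of free RNA was not tested. Irgc1 lies 15.3 kb from Plaur on chromosome 7 in GRCm38.p6 (chr7:24431919-24445682, with Plaur at chr7:24460937-24475970), and Apoe lies 4760 kb away on the same chromosome. Hprt, Irgc1, Apoe and Apoc2 were already known from these libraries to differ in several leukocyte types. Here Hprt and Irgc1 had ratios of 3.72 and 2.48 in neutrophils and 1.14 and 1.09 in B cells.

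**Figure D3:**
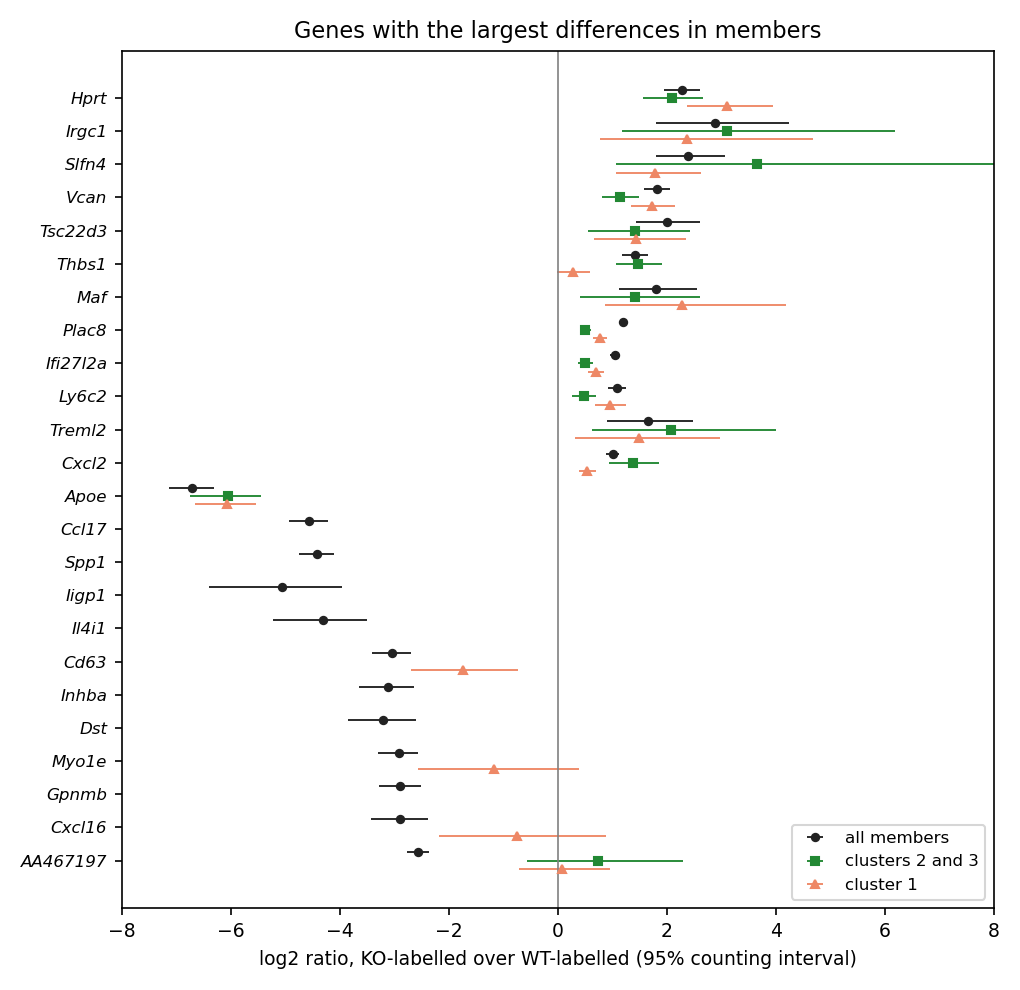
KO-labelled against WT-labelled CPM, as log2 ratios, for the 12 highest and 12 lowest genes of members, with 95% counting intervals, shown for a set of cells where the gene had at least 20 UMIs, with the interval of Slfn4 in clusters 2 and 3 running past the axis at 8. All 12 high genes keep their sign in clusters 2 and 3 and in cluster 1, and of the 12 low genes only Apoe and AA467197 have enough UMIs to be drawn in clusters 2 and 3.

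The other high genes included genes of the rule itself. Vcan, which encodes the matrix proteoglycan versican and was 1 of the genes of the rule, was at 178 and 629 CPM in members, and its ratio was 1.82 over all members, 1.15 (0.82 to 1.496) in clusters 2 and 3 and 1.73 in cluster 1. Ly6c2, also of the rule, was at 410 and 870 CPM, with ratios of 1.09, 0.48 (0.27 to 0.70) and 0.97. Both genes helped to choose the members, so these values are a description. Reads of Ly6c2 and its near-identical neighbour Ly6c1 cannot always be told apart, and Ly6c1 had 0 and 2 UMIs. The other rule genes were closer: in clusters 2 and 3 Ccr2 was lower by 0.29 and F13a1, Ms4a4c and Ms4a6c had ratios of 0.12, -0.09 and 0.27. Lyz2 had -0.19.

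Thbs1, which encodes the adhesive glycoprotein thrombospondin 1, was at 184 and 513 CPM in clusters 2 and 3, a ratio of 1.48 (1.07 to 1.91). In cluster 1 it was at 402 and 488 CPM, a ratio of 0.28 with an interval (-0.02 to 0.59) that held 0. The ratio was -0.57 in neutrophils and 1.11 (0.74 to 1.49) in nonclassical monocytes. Tsc22d3, the glucocorticoid-induced leucine zipper gene, was at 40.9 and 110 CPM, a ratio of 1.43 (0.55 to 2.43) and of 1.44 in cluster 1, below the 410 and 533 CPM of B cells. Slfn4, an interferon-induced gene of myeloid cells, had 1 UMI in 59 cells and 35 UMIs in 138 cells there, while in cluster 1 it had 58.5 and 202 CPM. Neutrophils held 451 and 599 CPM of Slfn4. Maf, a transcription factor of macrophages, was at 30.7 and 81.8 CPM in clusters 2 and 3 and 14.6 and 70.7 CPM in cluster 1, and Treml2, a receptor of the TREM family, at 13.7 and 57.4 CPM, below the 69.5 and 94.5 CPM of B cells. Plac8 was abundant in both libraries, at 3531 and 5003 CPM in clusters 2 and 3, and differed there by 0.50 against 1.20 over all members and 0.78 in cluster 1. In nonclassical monocytes Vcan, Ly6c2, Maf, Plac8 and Ifi27l2a had ratios of 1.60, 1.32, 1.59, 1.04 and 1.46. Slfn4, Tsc22d3, Treml2 and Cxcl2 had -0.06, 0.23, 0.07 and 0.15 in those cells. Cxcl2, a neutrophil-attracting chemokine, was at 160 and 418 CPM in clusters 2 and 3. B cells held 134 and 423 CPM of it, close to clusters 2 and 3 in CPM. The median B cell had 2398 UMIs, against 5238 and 5224 in clusters 2 and 3. Equal CPM therefore does not mean equal free RNA per cell, and no difference of the members is read from Cxcl2. In neutrophils it was at 5910 and 5841 CPM. The neutrophil markers summed to 464 and 799 CPM in the same cells, and their part in the Cxcl2 difference was not tested.

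Most of the lowest genes besides Apoe were genes of clusters 4 and 5. Ccl17, which encodes a chemokine for T helper cells, had 751 and 74 UMIs over all members but 0 and 0 in clusters 2 and 3. Spp1, which encodes osteopontin, had 826 and 90 UMIs over all members and 0 and 1 in clusters 2 and 3. Gpnmb had 243 and 76 UMIs, with 1 and 2 in clusters 2 and 3, Cd63 294 and 83 with 0 and 4, and Inhba 165 and 44 with 4 and 1. Their ratios over all members, from -2.89 for Gpnmb to -4.56 for Ccl17, stand beside the 40 WT-labelled and 15 KO-labelled members of those clusters. Il4i1, Iigp1, Dst, Myo1e, Cxcl16 and AA467197 had ratios of -4.31, -5.05, -3.21, -2.92, -2.89 and -2.56 over all members and 1 to 28 UMIs per library, or 0, in clusters 2 and 3.

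The NF-kB list was among those with a median below 0 in all 3 sets of cells, beside the MHC class II, monocyte-derived dendritic cell and immediate early lists. In this pathway, receptors for TNF, interleukin-1 and bacterial products release Rel transcription factors that switch on survival genes, cytokines and their own inhibitors. Over all members, 18 of 29 genes were lower by 1.5-fold or more and 0 higher, with a median of -0.76, where 11.3% of 8459 genes with at least 20 UMIs were lower and 11.6% higher. Clusters 2 and 3 had these counts: 15 of 26 were lower and 2 higher, with a median of -0.66, against 11.9% and 15.7% of 5900 genes. In cluster 1, 13 of 28 were lower and 3 higher, with a median of -0.52, against 11.4% and 17.3% of 6744 genes. Many single genes had wide intervals.

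Of the Rel factors, Rel (c-Rel) was at 403 and 247 CPM in clusters 2 and 3, a ratio of -0.71 (-1.04 to -0.37), and Relb at 68.2 and 28.1 CPM, a ratio of -1.28 (-2.21 to -0.34). Nfkb1 (p105) differed less there, at 413 and 336 CPM, a ratio of -0.30 (-0.61 to 0.02). In cluster 1 the same 3 genes had ratios of -0.17, -0.65 and -0.08, each with an interval that held 0. Among survival and adaptor genes, Traf1 was at 68.2 and 14.7 CPM in clusters 2 and 3, a ratio of -2.22 (-3.38 to -1.12), with 45.0 and 56.03 CPM in B cells, and Birc3, an inhibitor of apoptosis, at 290 and 160 CPM, a ratio of -0.86 (-1.26 to -0.45). Traf1 had -2.07 (-3.19 to -0.96) in cluster 1. Bcl2a1b and Bcl2a1d, copies of an anti-apoptotic gene whose reads can be split between them, had -2.17 and -2.64 over all members. Bcl2a1b had -0.87 (-1.76 to 0.04) in clusters 2 and 3 and Bcl2a1d had 9 UMIs there.

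Of the surface genes on the list, Cd83 was at 164 and 66.0 CPM in clusters 2 and 3, a ratio of -1.31 (-1.90 to -0.72), and Icam1, the adhesion ligand of CD11b and CD11a integrins, at 106 and 42.8 CPM, a ratio of -1.31 (-2.05 to -0.56). Cd83 had -1.14 (-1.82 to -0.43) and Icam1 -0.15 (-0.95 to 0.74) in cluster 1. The inhibitors were mixed. Nfkbia, the inhibitor IkB-alpha, was at 669 and 557 CPM in clusters 2 and 3, a ratio of -0.26, and Tnfaip3, the enzyme A20, at 256 and 147 CPM, a ratio of -0.80 (-1.23 to -0.37). Nfkbid had 1.33 (-0.19 to 3.30) there, from 4 and 28 UMIs. The list's median was -0.74 in nonclassical monocytes (16 of 29 lower, background 13.8%), -0.71 in neutrophils (17 of 29, background 6.98%), -0.18 in C1q macrophages (2 of 29, background 7.39%) and 0.21 in B cells. Nonclassical monocytes and neutrophils thus had medians close to that of members.

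**Figure D4:**
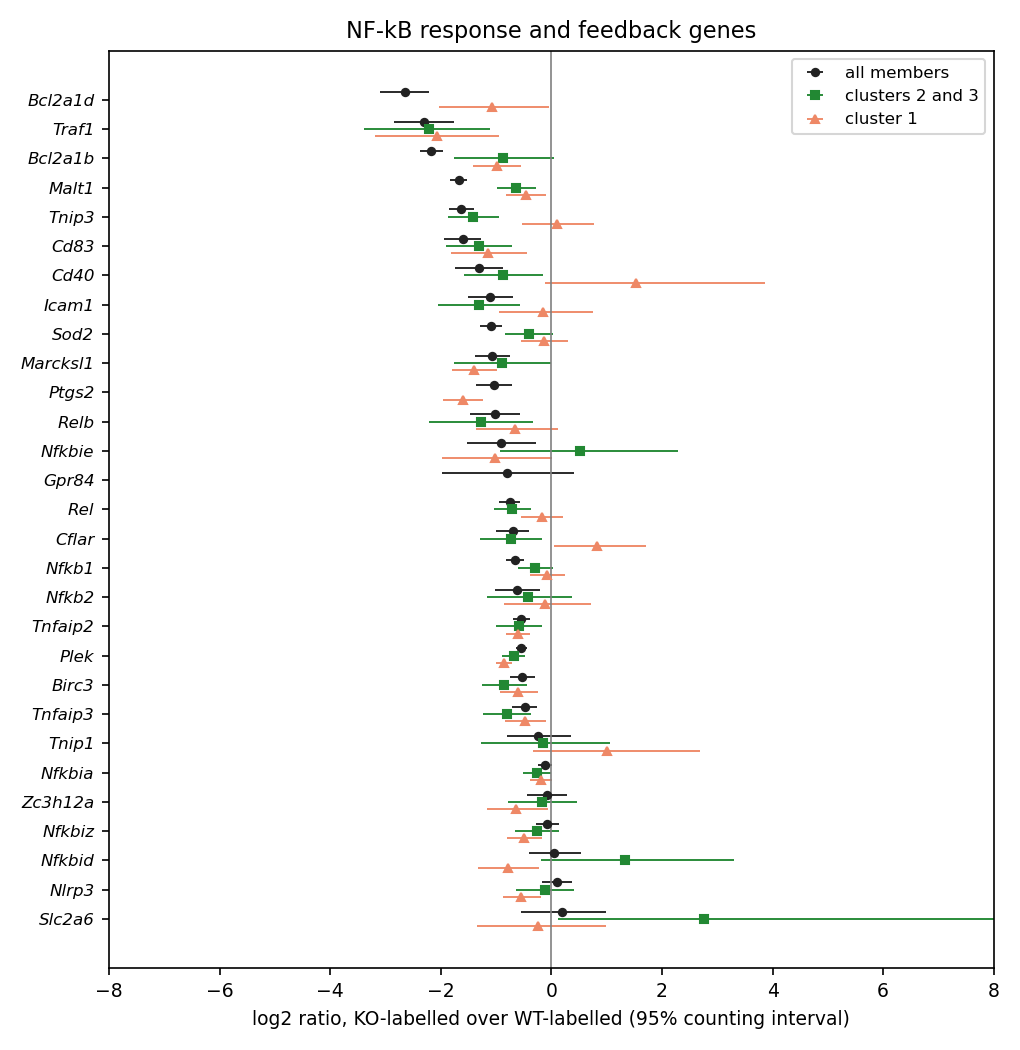
KO-labelled against WT-labelled CPM, as log2 ratios with 95% counting intervals for each of 29 NF-kB genes in all members, in clusters 2 and 3 and in cluster 1, drawn where a gene had at least 20 UMIs, on an axis that ends at -8 and 8. Traf1 and Cd83 lie left of 0 in all 3 sets, and Cd40, Tnip1 and Cflar lie right of 0 in cluster 1 only.

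Genes of MHC class II presentation, which display peptides to CD4 T cells, were lower over all members, with 9 of 14 lower by 1.5-fold or more, 0 higher and a median of -1.10, against 11.3% of all genes lower. Clusters 2 and 3 gave 5 of 12 lower and a median of -0.52, against 11.9%, and cluster 1 gave 4 of 12 and -0.19 (-0.64 to 0.51), against 11.4%. A range beside a list's median gives the median of its genes' lower bounds and that of their upper bounds. It is no interval of the median itself. The alpha chain gene H2-Aa was at 2264 and 480 CPM over all members, and at 1085 and 450 CPM in clusters 2 and 3, a ratio of -1.27 (-1.49 to -1.05), with -1.11 in cluster 1. The beta chain genes H2-Ab1 and H2-Eb1 had ratios of -1.10 and -1.20 in clusters 2 and 3 and -1.24 and -0.87 in cluster 1. H2-Aa was found in 19 of 59 and 33 of 138 cells of clusters 2 and 3, so most of these cells had none of it. Cluster 4 was at 7471 CPM of H2-Aa over both libraries. C1q macrophages were at 4866 and 5783 CPM, in the opposite order, and B cells at 2449 and 2129 CPM. Nonclassical monocytes were lower in the KO-labelled library too, at 534 and 368 CPM, a ratio of -0.54 (-0.71 to -0.36). Their ratios for H2-Ab1 and H2-Eb1 were -0.38 and -0.63, and their list had a median of -0.19, with 2 of 12 lower and 2 higher, against 13.8% and 11.9% of all genes. Ifi30, the lysosomal thiol reductase of the same list, had a ratio of 0.34 (0.13 to 0.56) in clusters 2 and 3.

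The lists of macrophage differentiation and lipid genes, type 2 and alternative activation genes, and monocyte-derived dendritic cell genes were lower over all members, with medians of -0.74, -1.46 and -1.63. Of these, 23 of 40, 14 of 22 and 15 of 19 genes were lower by 1.5-fold or more, against 11.3% of all genes. The medians in clusters 2 and 3 were 0.10, 0.03 and -0.70, and in cluster 1 they were 0.09, 0.15 and -0.18. Of the dendritic cell list, 7 of 11 genes were lower and 0 higher in clusters 2 and 3, against 11.9% and 15.7% of all genes. In cluster 1, 2 of 13 were lower and 1 higher, against 11.4% and 17.3%. For the first 2 lists the median bounds of their genes lay on both sides of 0 in clusters 2 and 3. They ran from -0.34 to 0.52 and from -0.75 to 0.73, and no difference of these lists is read there. Ccl24, an eosinophil-attracting chemokine on the type 2 list, went the other way from its list over all members, at 176 and 220 CPM, and in clusters 2 and 3 it was at 34.1 and 126 CPM, a ratio of 1.88 (0.95 to 2.99), with 6 and 223 UMIs in cluster 1. In clusters 2 and 3 it came from few cells: 2 of 59 and 14 of 138 cells had a UMI, and 1 KO-labelled cell held 55 of 103 UMIs. Nonclassical monocytes had a Ccl24 ratio of 2.73 (1.82 to 3.82). Chil3, which encodes the chitinase-like protein Ym1, was at 529 and 728 CPM in clusters 2 and 3, a ratio of 0.46 (0.20 to 0.73).

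**Figure D5:**
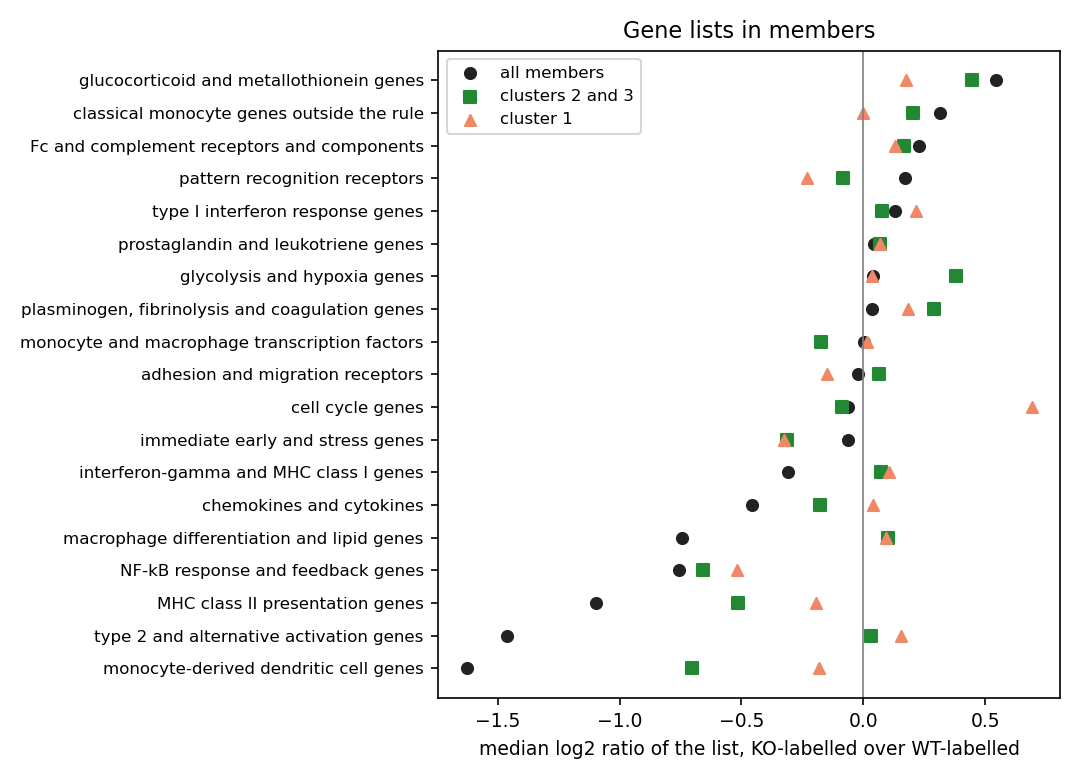
Median log2 ratio between the libraries (KO-labelled to WT-labelled) for each of 19 gene lists, over genes with at least 20 UMIs over both libraries, in all members, in clusters 2 and 3 and in cluster 1. The NF-kB list is left of 0 in all 3 sets, from -0.76 to -0.52, and the macrophage and type 2 lists are left of 0 only over all members.

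Classical monocyte genes that were not part of the rule had 9 of 26 genes higher by 1.5-fold or more over all members, with a median of 0.31, against 11.6% of all genes. In clusters 2 and 3 they had 3 of 26, under the 15.7% of all genes there, with a median of 0.21 (-0.14 to 0.43), so this count is no result about the list. Cluster 1 had a median of 0.00. Fcgr1, the high-affinity IgG receptor gene, was at 53.2 and 128 CPM over all members and had a ratio of 0.42 (-0.17 to 1.05) in clusters 2 and 3. Msrb1, a methionine sulfoxide reductase gene, had 0.65 (0.40 to 0.90) there but 1195 and 1158 CPM in cluster 1, and Il17ra, a chain of the interleukin-17 receptor, had -0.74 (-1.09 to -0.40) and -0.37. Csf1r, the receptor for the growth factor of this lineage, was at 399 and 313 CPM in clusters 2 and 3.

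Genes that glucocorticoids are known to induce had a median of 0.54 over all members, where 8 of 16 were higher by 1.5-fold or more and 3 lower, against 11.6% and 11.3% of all genes. Clusters 2 and 3 gave 0.45, with 5 of 12 higher and 0 lower, against 15.7% and 11.9%, and cluster 1 gave 0.17. The median bounds of the genes lay on both sides of 0, from -0.12 to 1.16 over all members and from -0.03 to 1.89 in clusters 2 and 3. Besides Tsc22d3, Klf9, a transcription factor gene, was at 13.7 and 69.6 CPM there, a ratio of 2.35 (0.92 to 4.28). Fkbp5, which encodes a chaperone of the receptor, was at 13.7 and 40.3 CPM, a ratio of 1.56 (0.07 to 3.52), and Per1, a clock gene, at 37.5 and 72.1 CPM, a ratio of 0.94. In cluster 1 the ratios of Klf9, Fkbp5 and Per1 were 1.13, 0.15 and 0.63. The values in clusters 2 and 3 rest on 4, 4 and 11 WT-labelled UMIs. The metallothionein genes Mt1 and Mt2, on the same list, were lower over all members, by 0.77 and 1.41, and in clusters 2 and 3 Mt1 had 0.35. The list's median was 0.62 in C1q macrophages (9 of 15 higher, background 7.57%) and 0.57 in B cells (7 of 14, background 7.92%). It was 0.23 in nonclassical monocytes (3 of 15, background 11.9%) and 0.12 in neutrophils (5 of 16, background 19.4%). C1q macrophages and B cells thus had medians close to that of members.

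Heat shock, early response and mediator genes did not all differ in the same direction. Hspa8, the constitutive HSP70 chaperone gene, was at 1412 and 2011 CPM in clusters 2 and 3, a ratio of 0.51 (0.35 to 0.67), with ratios of 0.71 in cluster 1, 1.19 in neutrophils and 0.73 in B cells. Hsph1, its partner, had 3 and 29 UMIs in clusters 2 and 3. The list of immediate early and stress genes had a median of -0.31 in clusters 2 and 3, where 7 of 33 genes were lower by 1.5-fold or more and 3 higher, against 11.9% and 15.7% of all genes. Cluster 1 had a median of -0.32, with 12 of 36 lower and 4 higher, against 11.4% and 17.3%. Over all members the median was -0.06. It was -0.35 in nonclassical monocytes (9 of 37 lower, background 13.8%) and -0.26 in neutrophils (12 of 39, background 6.98%). C1q macrophages had 0.17 and B cells 0.16. Egr2, a transcription factor gene, had 14 and 7 UMIs in clusters 2 and 3, a ratio of -2.48 (-4.03 to -1.08). Hpgd, of the prostaglandin list, was at 249 and 97.7 CPM in clusters 2 and 3, a ratio of -1.35 (-1.83 to -0.87), and -2.24 in cluster 1. Among cytokines in clusters 2 and 3, Il1b was at 747 and 378 CPM, a ratio of -0.98 (-1.24 to -0.73) and of -0.68 in cluster 1, and Cxcl10 at 785 and 309 CPM, although 1 cell in each library held 56 of 230 and 88 of 253 UMIs of Cxcl10 and its ratio in cluster 1 was -0.19 (-0.55 to 0.17).

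Type I interferon response genes had a median of 0.13 over all members, with 17 of 57 higher by 1.5-fold or more and 3 lower, against 11.6% and 11.3% of all genes. In clusters 2 and 3 the median was 0.08, with 4 of 50 higher, under the 15.7% of all genes, and 2 lower. Cluster 1 had a median of 0.22 (-0.49 to 0.89), with 11 of 56 higher, near its 17.3% of all genes, and 1 lower. The list's median was 0.53 in neutrophils (29 of 60 higher, background 19.4%) and 0.50 in nonclassical monocytes (23 of 56, background 11.9%). It was -0.06 in C1q macrophages (2 of 59, background 7.57%). Neutrophil markers were most abundant in cluster 1, and their part in its values was not tested. Ifi27l2a, an interferon-induced gene, was at 2047 and 2911 CPM in clusters 2 and 3, a ratio of 0.51 (0.38 to 0.64). Ifitm3, which encodes a membrane protein that blocks virus entry, was at 4322 and 4864 CPM, a ratio of 0.17, and Rsad2, the antiviral enzyme viperin, had 6 and 107 UMIs in cluster 1, a ratio of 1.99 (0.82 to 3.47). The list could be matched to RefSeq promoters (GRCm38.p6, 250 bases before to 50 after the start) for 47 of 63 genes, and 27 of them held the interferon response core (GAAA, any 2 bases, GAAA) on either strand, which 3.99% of 27025 genes with a promoter hold. Of the 15 matched genes higher by 1.5-fold over all members 5 held it, and of the 26 measured genes past neither limit 18 did. The promoters of Rsad2, with 1 match, and Ifitm3, with 2, are shown as the examples named above, each on the minus strand and written 5′ to 3′ in the direction of the gene, with matches in capitals.
Rsad2, chr12:26456403-26456702: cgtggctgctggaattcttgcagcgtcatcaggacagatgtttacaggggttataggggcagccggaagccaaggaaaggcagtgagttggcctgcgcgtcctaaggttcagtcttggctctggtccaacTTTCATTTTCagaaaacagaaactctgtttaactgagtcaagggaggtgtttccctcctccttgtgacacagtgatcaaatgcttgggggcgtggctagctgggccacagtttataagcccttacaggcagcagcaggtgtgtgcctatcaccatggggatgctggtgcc
Ifitm3, chr7:141010695-141010994: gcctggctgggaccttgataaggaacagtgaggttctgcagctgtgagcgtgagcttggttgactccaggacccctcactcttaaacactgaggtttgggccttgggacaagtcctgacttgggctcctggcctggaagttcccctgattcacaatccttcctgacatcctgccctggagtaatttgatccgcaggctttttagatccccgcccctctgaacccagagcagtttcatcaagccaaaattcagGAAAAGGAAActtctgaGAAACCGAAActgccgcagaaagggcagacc
The glucocorticoid receptor core (G, any base, ACA, any 3 bases, TGT, any base, C, both strands) was in 4 of 17 matched promoters of its list, Sgk1, Mt1, Txnip and Map3k6, against 0.537% of all genes, and in none of the windows of Tsc22d3, Klf9, Fkbp5 and Per1. The kappa B core (GGGA, any 2 bases, TTCC, both strands) was in 2 of 23 NF-kB list promoters, Nfkbia and Nfkb2, against 1.63%. A match is a description of these letters and not a site.

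Beside these differences, marker RNA of other cells moved between the libraries. Over all members the 12 NK cell markers summed to 486 and 79.2 CPM, the 16 alveolar macrophage markers to 752 and 320 CPM, the 14 interstitial macrophage markers to 647 and 229 CPM and the 13 conventional dendritic cell markers to 772 and 268 CPM. In clusters 2 and 3 these sums were 17.1 and 20.8, 341 and 149, 88.7 and 112, and 188 and 142 CPM, with 10, 7, 4 and 8 of the markers at 0 in both libraries. T cell markers summed to 13.6 and 13.4 CPM there, and eosinophil, mast cell and red cell markers were at 0. Neutrophil markers moved the other way over all members, at 5268 and 8703 CPM. Of these, 8 of 14 were higher by 1.5-fold or more, against 11.6% of all genes. Clusters 2 and 3 had 2 of 6 higher, against 15.7%, and cluster 1 had 1 of 14, against 17.3%. Endothelial markers summed to 51.2 (28.6 to 84.4) and 6.11 CPM (1.98 to 14.3) in clusters 2 and 3, from only 15 and 5 UMIs. The part of these in the gene differences was not tested.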

How the data were processed

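The authors deposited UMI counts per gene and antibody tag per barcode; the submitters' processing notes name Cell Ranger 7.1.0, Cell Ranger 7.0.0 and mm10. They came from 10x Genomics 3′ v3.1 libraries, per the labels' protocols. No cell annotation was used. The members, gene lists and rule were chosen with earlier results of these data known. UMI counts were summed per library and given as CPM of the sum, with exact Poisson, conditional binomial (log2 ratio, KO-labelled over WT-labelled, 0.5 UMI in place of 0) and Clopper-Pearson intervals, and antibody differences with a normal approximation on log counts, all at 95%. Doublets were called with Scrublet in scanpy 1.11.5 (expected 8%) and kept. Members were clustered on 2000 variable genes, 15 principal components and 15 neighbours (Leiden, resolution 0.5), without Plaur, receptor segment, mitochondrial, ribosomal and sex-linked genes. A gene was called past 1.5-fold at 100 or more UMIs over both libraries, or at 20 or more within a list. A gene without the needed UMIs in a set of cells gave no value. Genes named are the 12 highest and 12 lowest by the interval bound nearest 0 without markers of other cell types, the rule, target and antibody genes, and up to 3 per list and direction at 50 or more UMIs. Rel, Relb, Nfkb1, Birc3, Cd83, Cd40, Cflar, Tnip1, Tnfaip3, Klf9, Fkbp5, Il1b, Cxcl10, Ifitm3 and Rsad2 were named after their values were seen, as was the split by clusters. The interval computation was tested on simulated counts. Alternatives used edgeR 4.0.16 (TMM) and DESeq2 1.42.0 (size factors). Mx1, Pyhin1, Ly6a2, Fam26f and Clec7a were not analysed here. Other software was pandas 2.3.3, SciPy 1.17.1, NumPy 2.4.6 and Python 3.11.15.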

Additional observations from a re-analysis of the deposited data

How the results depend on the processing

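Each value was recomputed under other settings; subsets by cluster or by S100 share were chosen after seeing the data. The KO-labelled over WT-labelled ratio of member shares, 1.91, stayed above 1 in each of them: it was 1.39 with 2 of 6 monocyte genes, 2.60 with 4, 2.71 after thinning cells to 2000 UMIs, 1.505 with S100 under 0.25% and 1.38 without cluster 1. The counts of genes past 1.5-fold, 307 higher and 287 lower, were 109 and 67 after thinning (fewer UMIs), 982 and 955 at 20 or more UMIs, 65 and 47 at 500 or more, 587 and 130 without the 5 cells with most UMIs of each gene, and 153 and 109 in clusters 2 and 3; 146 were lower with 4 of 6 monocyte genes and 170 in cluster 1. TMM and DESeq2 scaling moved none of these.

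The NF-kB median stayed within the median bounds of the list's genes under each setting. The MHC class II median of -1.10 was -0.56 after thinning, -0.35 with each cluster weighted alike, -0.52 in clusters 2 and 3 and -0.19 in cluster 1. The macrophage list's -0.74 was -0.062 with 4 of 6 monocyte genes, -0.053 with clusters weighted alike, -0.35 without the 5 top cells, and reversed to 0.10 and 0.091 in clusters 2 and 3 and in cluster 1. The type 2 list's -1.46 was -0.29 with 4 of 6 genes, -0.0015 with clusters weighted alike, and reversed to 0.029 and 0.15. The dendritic cell list's -1.63 was -0.8646 with 4 of 6 genes, -0.58 with clusters weighted alike, -0.70 in clusters 2 and 3 and -0.18 in cluster 1. The classical monocyte list's 0.31 was 0.15 with clusters weighted alike and 1.83e-05 in cluster 1.

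Of 1374 values of 138 named genes under 10 settings, 1095 stayed within the main interval and 11 reversed: Clec4n to 0.11 after thinning; Mmp19 to 0.40, Cd36 to 0.11 and Mt2 to 0.97 with 4 of 6 monocyte genes; and with clusters weighted alike Cd9 to 0.081, Mmp14 to 0.21, Mmp12 to 0.76, Tbxas1 to 0.26, Mt2 to 0.63, Sgk1 to 0.56 and Mt1 to 0.59.

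The CD11b antibody difference of -0.77 was -0.25 by medians, -0.24 without B cells as reference, -0.34 as centred log ratio, -0.67 with 4 of 6 genes and -0.71 in clusters 2 and 3. Ly-6C, -0.17, was -0.00500, 0.79, 0.22, -0.46 and -0.64 in the same order. CD14, -0.03, was -0.58 by medians and -0.35 without the reference. CCR3, -0.53, was 0.00 by medians, -0.18 without the top 1% of cells and 0.00892 as centred log ratio. The ST2 median is 0 and gave no value. Shares of members per cluster stayed within their intervals at resolution 1 (9 clusters, each assigned to the cluster it shared most cells with) and with doublet calls removed. No paired analysis was possible because each genotype has 1 library. The cause of these shifts was not tested. The small numbers of WT-labelled cells, 59 in clusters 2 and 3 and 35 in cluster 1, limit single genes.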
